A study of Mus musculus with 9 samples.

Results

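The transcripts of the ADAM family were followed in testis RNA of mice that differ in the gene of protamine 2 (Prm2). Members were all genes of the deposited table whose symbol is Adam followed by a digit, which leaves out the related Adamts genes and gave 31 of 38685 genes. By what is known of their sites of expression, 18 of them were taken as germ-cell members and 13 as somatic or widely expressed members. The study sequenced testes without tunica albuginea from male C57BL/6 mice with 3 libraries each for Prm2+/+, Prm2+/- and Prm2-/-, described as biological replicates. The Prm2-deficient mice come from CRISPR/Cas9 gene editing in oocytes, both alleles are edited in Prm2-/- and 1 in Prm2+/-, and the labels do not say which of the edited lines gave a library. The ages of the males were not given in the sources used here, and the comparison asks whether loss of the protamine alters the RNA content of the testis.

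ADAM proteins are membrane-anchored proteins with a metalloproteinase-like domain and a disintegrin domain. Some cut other proteins from the cell surface, with a zinc ion held by histidines and a catalytic glutamate in the metalloproteinase domain, while others lack this site and act in adhesion or as chaperoned partners. In male germ cells many members are made as precursors, are processed during sperm maturation, and ADAM2 and ADAM3 are best known for their part in sperm migration through the uterotubal junction and in binding to the zona pellucida. Protamines replace histones in the nuclei of elongating spermatids.

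The letters of this site separate the family. The coding sequences below were read from the GENCODE M21 transcript with the longest coding sequence (GRCm38). They are 33 bases long, written 5′ to 3′, and the capitals mark the codons at the places of the first histidine, the glutamate, the second histidine and the third histidine of the zinc-binding site. Where a member lacks the site, the stretch is the one aligned to it. The first set holds the most abundant germ-cell transcripts, the second holds germ-cell members with the site and Adam29, in which only the glutamate codon is missing, and the third holds somatic proteinases.
Adam5: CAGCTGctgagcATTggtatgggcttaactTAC
Adam3: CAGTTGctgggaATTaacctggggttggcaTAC
Adam2: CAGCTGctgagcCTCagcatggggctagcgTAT
Adam32: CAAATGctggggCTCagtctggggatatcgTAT
Adam18: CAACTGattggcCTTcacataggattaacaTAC
Adam6a: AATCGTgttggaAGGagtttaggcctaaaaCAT
Adam20: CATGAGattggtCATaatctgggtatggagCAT
Adam24: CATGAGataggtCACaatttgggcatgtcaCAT
Adam25: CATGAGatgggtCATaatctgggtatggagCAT
Adam29: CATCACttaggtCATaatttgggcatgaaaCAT
Adam10: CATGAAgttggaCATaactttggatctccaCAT
Adam15: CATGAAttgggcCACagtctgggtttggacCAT
Adam17: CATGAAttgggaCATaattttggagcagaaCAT
Read as codons, Adam10, Adam15, Adam17, Adam20, Adam24 and Adam25 carry all 3 histidines and the glutamate. Adam29 keeps the 3 histidine codons without the glutamate codon, and Adam2, Adam3, Adam5, Adam18 and Adam32 have 0 of the histidine codons. Adam4 and Adam7, not printed above, also keep 3 histidine codons without the glutamate codon. Among members with an entry in the data, 9 of the 18 germ-cell members and 9 of the 13 somatic members carry the intact site. Annotated relatives without an entry, such as Adam1a and Adam34, are not covered.

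Among germ-cell members, the site was found only in genes with 1 coding exon. Of these 18, 13 have their coding sequence in 1 exon, and 9 of these carry the site (Adam1b, Adam20, Adam21, Adam24, Adam25, Adam26a, Adam26b, Adam30 and Adam39), while Adam4, Adam6a, Adam6b and Adam29 do not. The other 5 (Adam2, Adam3, Adam5, Adam18 and Adam32) have 19 to 22 coding exons and 0 sites. All 13 somatic members have 16 to 30 coding exons, and those without the site are Adam7, Adam11, Adam22 and Adam23, of which the last 3 are known as non-catalytic receptors of nerve cells.

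The germ-cell members are clustered in the genome. Of the 18, 11 lie on chromosome 8 and 4 on chromosome 12. Adam18 (chr8:24602246-24674755), Adam3 (chr8:24677225-24725852), Adam5 (chr8:24727093-24824369) and Adam32 (chr8:24836140-24948804) follow each other on the minus strand of GRCm38, and the somatic member Adam9 (chr8:24949611-25016927) comes 806 bases after Adam32 on the same strand. Adam24 (chr8:40675077-40682199), Adam25 (chr8:40752208-40756176), Adam20 (chr8:40793273-40797303) and Adam39 (chr8:40822990-40827037) form a second group on the plus strand, and Adam26b and Adam26a a further pair. Adam6b (chr12:113489511-113492057) and Adam6a (chr12:113543908-113546465) lie 51850 bases apart on chromosome 12.

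Some of these neighbours are near-copies, and their counts are uncertain for that reason. The translated coding sequences of Adam25 and Adam39 were 91.4% identical, those of Adam6a and Adam6b 89.8% and those of Adam26a and Adam26b 88.4%. In 9 members, more than 10% of the 50-base windows of the transcript also occur in another gene, from 17.4% in Adam4 to 36.7% in Adam26b. In the last 500 bases, where the sequencing method reads, the share was 0 to 11.1% for these 9 members. For comparison, Adam3 and Adam5 are 37.7% identical and share no window with any other gene. Adam2, Adam3 and Adam32 overlap other annotated genes (Gm10233 for Adam2, Gm26208 and Gm45528 for Adam3, Gm23898 for Adam32), as do Adam8 (Gm16201 and Mir7062), Adam15 (4731419I09Rik), Adam22, Adam4 and Adam1b, and reads from the overlap may have been counted for either gene.

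RNA was sequenced with QuantSeq, which reads polyadenylated transcripts near their 3′ end, and the deposited values are normalized counts, that is, counts divided by 1 size factor per library. The total of recovered counts ran from 3629929 to 4490411 over the libraries. Testis markers fitted the tissue: the summed level of 6 markers of elongating spermatids was 196586 to 218478 normalized counts over the 9 libraries, and that of 5 epididymal markers 0 to 9.13, with Lcn5, Lcn8 and Spint4 at 0. Among 6 Sertoli cell markers, which summed to 672 to 896, Amh was at 0. The Prm2 transcript itself showed no detectable decrease in libraries carrying the Prm2-/- label (log2 fold change, LFC, 0.20, adjusted p = 0.746 in limma against Prm2+/+), so its level does not check the genotype labels.

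The germ-cell members made up nearly all ADAM transcripts of the testis. All 18 were detected in all 9 libraries, with means over the libraries from 54.8 normalized counts (Adam30) to 3903 (Adam5). Of the 13 somatic members, 9 to 11 were detected in a library, with means from 0 (Adam28) to 55.0 (Adam10). Summed over members, the germ-cell class had 10238 ± 532 normalized counts (SD, n = 3) in the Prm2+/+ libraries, 9763 ± 720 in those of Prm2+/- and 9731 ± 433 in those of Prm2-/-. The somatic class had 182 ± 22.7 in Prm2+/+, 192 ± 4.77 in Prm2+/- and 163 ± 35.0 in Prm2-/-. As a share of the library, germ-cell members took 22.8 to 27.0 of every 10000 counts and somatic members 0.304 to 0.525.

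**Figure D1:**
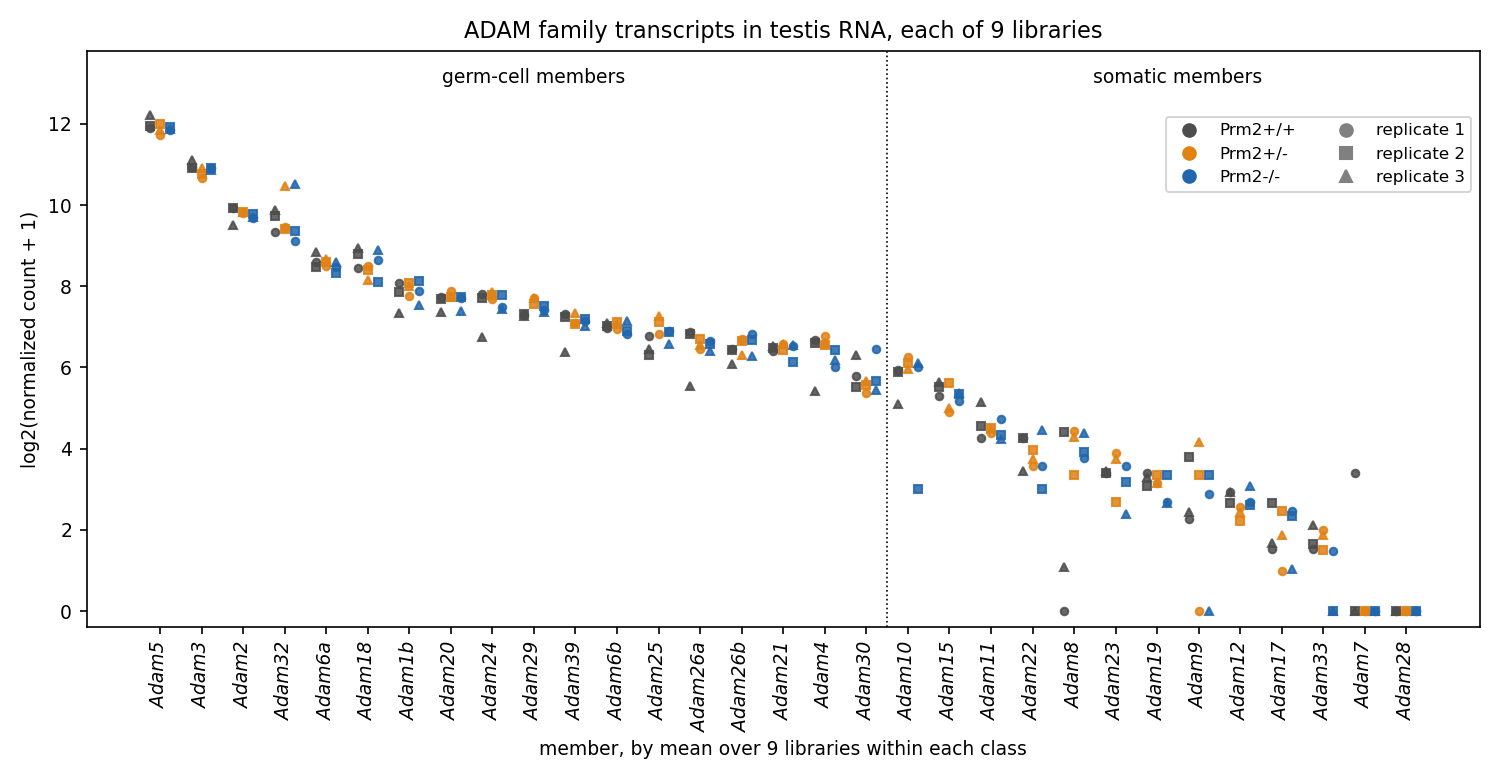
Level of each of the 31 members in each of the 9 libraries, on the vertical axis as log2(normalized count + 1), with germ-cell members left of the dotted line and somatic members right of it. Colour gives the genotype and the symbol the replicate. The germ-cell members run down from Adam5 to Adam30 with the genotypes largely intermingled, and among the somatic members single libraries stand apart in Adam10, Adam8 and Adam7.

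Levels of different genes were compared per kilobase of transcript. Without division by length, the sums in Prm2+/+ were 10238 (germ-cell) and 182 (somatic) normalized counts. The scale used here lowers long transcripts, since the method reads only their ends, and it makes this gap wider. The percentages of tested genes given below for single members were computed only on this scale. On it, the sum over germ-cell members was 103 ± 18.3 times that over somatic members in Prm2+/+, 89.5 ± 5.25 times in Prm2+/- and 108 ± 23.5 times in Prm2-/-, with single libraries between 84.6 and 135. The genotype ranges overlapped, and the highest ratio, in Prm2-/- replicate 2, belongs to the library with the lowest somatic sum (123 normalized counts). Adam5, Adam3 and Adam2 held 62.0% to 70.4% of the per-kilobase level of the whole family in each library.

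Adam5 led the order with a mean of 1525 normalized counts per kilobase, above 98.0% of the 14870 tested genes with a transcript length. Adam3 came next with 691 (95.4%). In every library Adam5 lay above the highest library of Adam3 (1325 to 1868 against 591 to 810 per kilobase), and Adam3 above all but 1 of the values of the next genes, since Adam32 reached 599 in its highest library. Adam32 (mean 359) and Adam2 (345) overlapped widely in their libraries, as did Adam18 (160) and Adam6a (148), so these pairs have no order. The median tested gene had 26.7 per kilobase, and 17 of the 18 germ-cell members lay above it, with Adam30 at 15.6.

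The top of this order was held by members without the zinc-binding site. Germ-cell members with the site had 15.6 to 78.4 normalized counts per kilobase, and those without it 33.6 to 1525. Only Adam6a and the members with several coding exons lay above the range of the site-bearing ones. Adam29 (64.7), Adam6b (50.4) and Adam4 (33.6) also lack the site and lay within that range. The site-bearing members contributed 7.49% to 12.8% of the germ-cell sum per kilobase, with the lowest share in Prm2+/+ replicate 3. The split by site and by exon number was made after the levels had been seen and is given as a description.

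Somatic members were low by the same measure. Adam10, known for the shedding of Notch and many other surface proteins, had 11.99 per kilobase (above 30.6% of tested genes), Adam15 10.1, Adam11 4.36, Adam8 4.17, Adam22 1.48 and Adam23 1.45. Adam22 is the longest transcript here, which lowers it on this scale, and lay above only 0.760% of tested genes. Neighbouring genes of the 2 classes differed as well: Adam32 had 359 per kilobase and Adam9, which lies 806 bases away, 1.72. Without division by length their means were 879 and 6.94 normalized counts. Adam9 was listed at 0 in Prm2+/- replicate 1 and Prm2-/- replicate 3 and had 3.80 to 16.8 normalized counts in the other 7 libraries.

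Of the 31 members, 24 had enough counts for a test, namely all 18 germ-cell members and 6 somatic ones (Adam8, Adam10, Adam11, Adam15, Adam22 and Adam23). The 7 that did not pass this filter were somatic. Over all 9 libraries Adam19 had 72 counts in total, Adam9 65, Adam12 50, Adam17 (the sheddase of tumour necrosis factor) 28, Adam33 17, Adam7 10 and Adam28 0. The 10 counts of Adam7, known for its expression in the epididymis, all came from Prm2+/+ replicate 1. For Adam28 a count of 0 in a library is compatible with an expectation of up to 3 counts, a limit for counting error only.

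No member (0 of 24) was called differentially expressed in any of the 3 genotype comparisons, with limma on log2(normalized count + 1), an adjusted p-value (Benjamini-Hochberg over the 14893 tested genes) under 0.05 and an LFC beyond 0.5. Over all tested genes the same rule called 0.181% in Prm2-/- against Prm2+/+, 0.0806% in Prm2+/- against Prm2+/+ and 0.175% in Prm2-/- against Prm2+/-, so that 0 of 24 is near this background. With edgeR 0 members were called in each comparison, against 0.161%, 0.0671% and 0.154% of all genes. DESeq2 called 0 members as well, against 0.880%, 0.396% and 0.739% of all genes. At an unadjusted p under 0.05 in limma there were 0 members in Prm2-/- against Prm2+/+ (7.33% of all genes), 3 in Prm2+/- against Prm2+/+ (4.24%) and 1 in Prm2-/- against Prm2+/- (5.44%). The 3 comparisons share libraries pairwise and are not independent of each other.

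The precision allows a statement on size for the germ-cell members. In Prm2-/- against Prm2+/+ the 95% interval of the LFC lay between -1 and 1 for all 18, and between -0.5 and 0.5 for 8 (Adam5, Adam3, Adam2, Adam6a, Adam20, Adam29, Adam6b and Adam21). For 15 of 18 the interval lay within -1 and 1 in each of the other two comparisons. Among the 6 tested somatic members this held for 2 in each comparison, Adam11 and Adam15. The median LFC of germ-cell members was -0.0052 in Prm2-/- against Prm2+/+, with 9 above and 9 below 0, 0.14 in Prm2+/- against Prm2+/+ and -0.10 in Prm2-/- against Prm2+/-. For somatic members it was -0.26, -0.084 and -0.047, and for all tested genes 0.020, 0.014 and -0.0059. In bulk testis RNA, fewer cells of a type and less RNA per cell cannot be told apart.

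**Figure D2:**
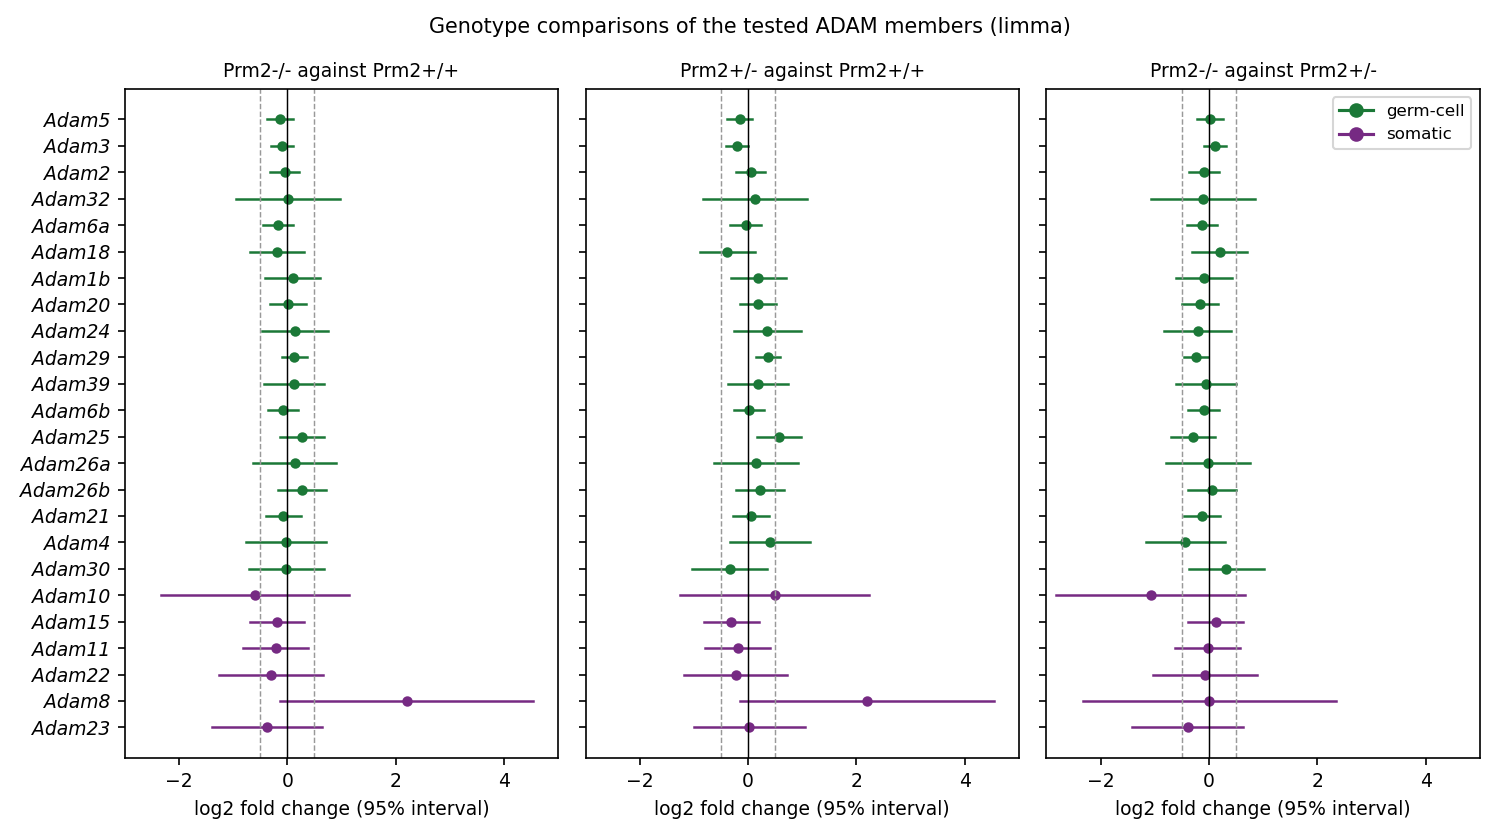
Log2 fold change (horizontal axis) with its 95% interval from limma for the 24 tested members in the 3 genotype comparisons, germ-cell members in green and somatic members in purple, with dashed lines at -0.5 and 0.5. All intervals include 0 except those of Adam29, Adam25 and Adam3 in Prm2+/- against Prm2+/+ and of Adam29 in Prm2-/- against Prm2+/-, and they are narrow for Adam5, Adam3 and Adam2, wider for Adam32, and span several log2 units for Adam10 and Adam8.

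Among the germ-cell members with several coding exons, Adam5 (ENSMUSG00000031554), whose protein lacks the zinc site and occurs on sperm, had 3799, 3963 and 4781 normalized counts in the Prm2+/+ libraries, 3393, 4111 and 3712 in those of Prm2+/- and 3710, 3890 and 3767 in those of Prm2-/-. The 3 groups overlapped, and the LFC of Prm2-/- against Prm2+/+ was -0.14 (95% interval -0.37 to 0.10, adjusted p = 0.755), and -0.035 without Prm2+/+ replicate 3. Adam3 (ENSMUSG00000031553), the sperm surface protein needed for passage through the uterotubal junction, had 1952, 1918 and 2221 in the Prm2+/+ libraries, 1621, 1725 and 1926 in those of Prm2+/- and 1913, 1929 and 1854 in those of Prm2-/-. Its Prm2+/- libraries reached into the range of Prm2+/+, and the LFC between them was -0.21 (interval -0.41 to -0.0065, unadjusted p = 0.0446, adjusted p = 0.842). Against Prm2+/+, Prm2-/- had an LFC of -0.094 (interval -0.30 to 0.11), which was -0.027 without Prm2+/+ replicate 3.

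Adam2 (ENSMUSG00000022039), fertilin beta, had 970, 968 and 722 normalized counts in the Prm2+/+ libraries, 894, 913 and 911 in those of Prm2+/- and 827, 881 and 839 in those of Prm2-/-. The lowest library was Prm2+/+ replicate 3, and all Prm2-/- libraries lay below all Prm2+/- libraries, by an LFC of -0.094 (interval -0.37 to 0.18, adjusted p = 0.998). Adam18 (ENSMUSG00000031552) had 352, 440 and 491 in the Prm2+/+ libraries, 358, 334 and 284 in those of Prm2+/- and 398, 272 and 473 in those of Prm2-/-. Both its lowest and its second highest value were in Prm2-/-, and the LFC of Prm2-/- against Prm2+/+ was -0.19 (interval -0.69 to 0.32). It was -0.083 without Prm2+/+ replicate 3 and 0.036 without Prm2-/- replicate 2.

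Adam32 (ENSMUSG00000037437) varied most between libraries of 1 genotype among the germ-cell members. Its libraries held 643, 851 and 946 in the Prm2+/+ libraries, 699, 682 and 1413 in those of Prm2+/- and 549, 658 and 1468 in those of Prm2-/-. Replicate 3 of Prm2+/- and of Prm2-/- stood apart from the other 7 libraries, which lay between 549 and 946. Within Prm2+/+ replicate 3 was the highest library as well. The coefficient of variation within genotypes was 44.1% where counting alone would give 3.35%. The LFC of Prm2-/- against Prm2+/+ was 0.011 (interval -0.95 to 0.97), and without Prm2-/- replicate 3 it was -0.42. Its neighbours Adam5 and Adam3 showed no such step in these libraries, and the cause was not tested.

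Of the members with 1 coding exon, Adam6a (ENSMUSG00000043945), whose product is needed for ADAM3 on sperm, had 386, 357 and 456 normalized counts in the Prm2+/+ libraries, 360, 388 and 406 in those of Prm2+/- and 353, 322 and 385 in those of Prm2-/-. The groups overlapped, with an LFC of -0.17 in Prm2-/- against Prm2+/+ (interval -0.45 to 0.11, adjusted p = 0.751) that was -0.074 without Prm2+/+ replicate 3. Its near-copy Adam6b ran from 111 to 141 over the 9 libraries.

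Adam29 (ENSMUSG00000046258, chr8:55870912-55906948) has 3 histidine codons and no glutamate codon, as do Adam4 and Adam7. Of the 24 tested members it was the only one whose 3 genotypes did not overlap at all. How many of all tested genes separate in this way was not counted, so this has no background to be set against. Separation of 2 genotypes is common. It held for 14.0% of all tested genes in Prm2-/- against Prm2+/+, 9.44% in Prm2+/- against Prm2+/+ and 14.7% in Prm2-/- against Prm2+/-. Adam29 had 157, 159 and 152 normalized counts in the Prm2+/+ libraries, 209, 187 and 209 in those of Prm2+/- and 168, 183 and 163 in those of Prm2-/-. Prm2+/- was highest and Prm2-/- lay between the other two genotypes. The LFC was 0.37 in Prm2+/- against Prm2+/+ (interval 0.14 to 0.59, unadjusted p = 0.00557, adjusted p = 0.842), 0.13 in Prm2-/- against Prm2+/+ (interval -0.093 to 0.36) and -0.24 in Prm2-/- against Prm2+/- (interval -0.46 to -0.0097, unadjusted p = 0.0428, adjusted p = 0.893). Its coefficient of variation within genotypes, 5.42%, was the lowest of the germ-cell members and below the 7.44% that counting alone would give.

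Adam25 (ENSMUSG00000071937), testase 2, had 108, 78.2 and 86.2 normalized counts in the Prm2+/+ libraries, 113, 139 and 152 in those of Prm2+/- and 118, 116 and 94.0 in those of Prm2-/-. All Prm2+/- libraries lay above all Prm2+/+ libraries, and Prm2-/- overlapped Prm2+/+. The LFC of Prm2+/- against Prm2+/+ was 0.56 (interval 0.15 to 0.97, unadjusted p = 0.0130, adjusted p = 0.842). Adam25 shares 34.2% of its 50-base windows with other genes, among them Adam20 and Adam39, and 6.87% in the last 500 bases.

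Groups that did not overlap were counted for all tested members. In Prm2-/- against Prm2+/+ there was 1 such member (Adam29) of 24, against 14.0% of all tested genes. In Prm2+/- against Prm2+/+ there were 4 (Adam20, Adam29, Adam25 and Adam10), against 9.44%, all with Prm2+/- higher. In Prm2-/- against Prm2+/- there were 3 (Adam2, Adam29 and Adam4), against 14.7%, all with Prm2-/- lower. The first share lies below the background, the second above it and the last near it, and none of these members passed the test over all genes.

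**Figure D3:**
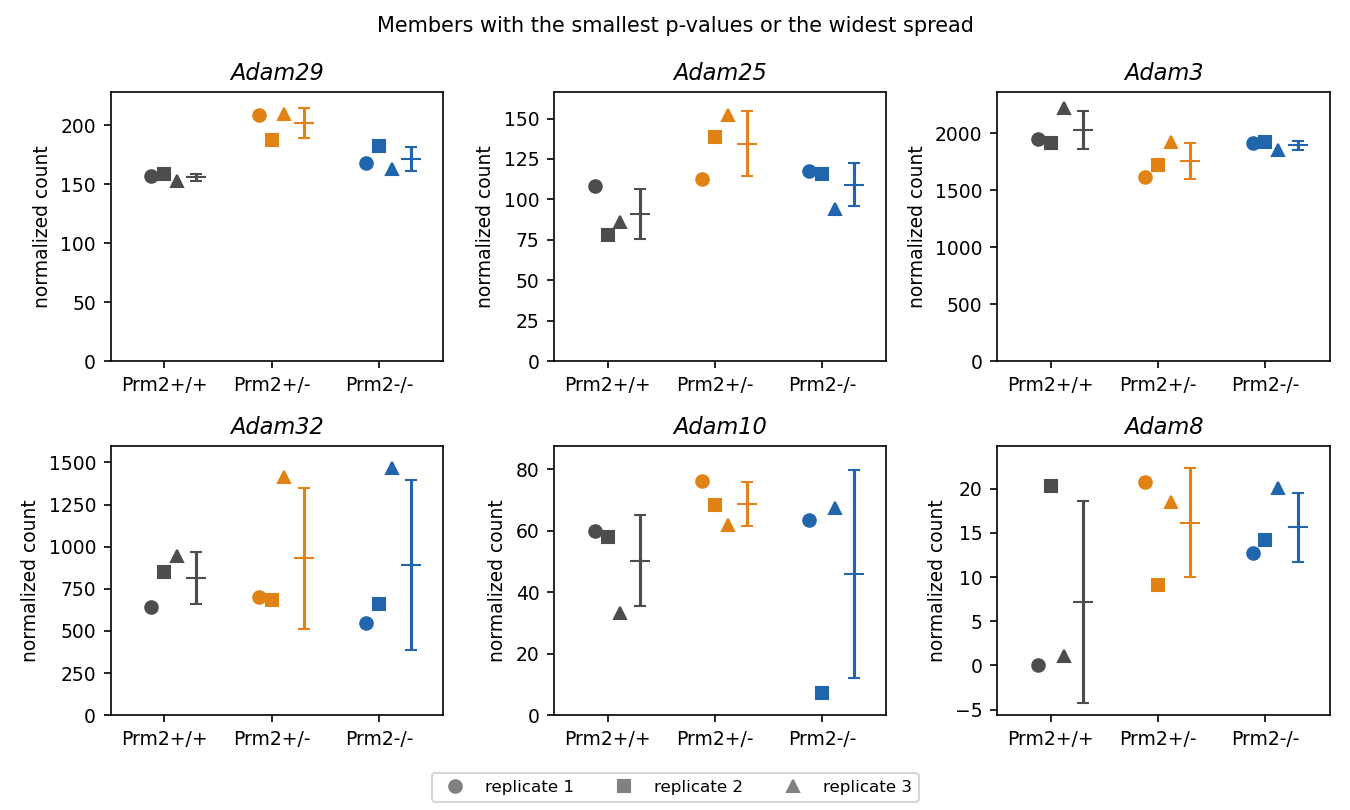
Normalized counts (vertical axis) of 6 members by genotype, each symbol being 1 library and each cross bar with error bar the mean and SD of 3 libraries (the SD of Adam8 in Prm2+/+ exceeds its mean and reaches below 0). In Adam29 the genotypes do not overlap, in Adam32 replicate 3 of Prm2+/- and Prm2-/- lies above all other libraries, and in Adam10 and Adam8 single libraries lie near 0.

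The remaining 10 germ-cell members (Adam1b, Adam20, Adam21, Adam24, Adam26a, Adam26b, Adam30, Adam39, Adam4 and Adam6b) had means over the libraries from 54.8 to 233 normalized counts. Their LFC in Prm2-/- against Prm2+/+ ran from -0.076 (Adam21) to 0.27 (Adam26b). In Prm2+/- against Prm2+/+ it ran from -0.34 (Adam30) to 0.41 (Adam4), and in Prm2-/- against Prm2+/- from -0.43 (Adam4) to 0.32 (Adam30). Adam24, testase 1, had an LFC of 0.14 in Prm2-/- against Prm2+/+ (interval -0.47 to 0.76), and Adam1b, a fertilin alpha protein that pairs with ADAM2, one of 0.099 (interval -0.41 to 0.61).

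Among somatic members, Adam10 (ENSMUSG00000054693, chr9:70678997-70780229) had 59.9, 57.9 and 33.1 normalized counts in the Prm2+/+ libraries, 76.1, 68.5 and 61.9 in those of Prm2+/- and 63.4, 7.10 and 67.6 in those of Prm2-/-. The low value of Prm2-/- replicate 2 set that library apart from the other 8. The LFC of Prm2-/- against Prm2+/+ was -0.59 (interval -2.33 to 1.15), and it was 0.42 without that library and -0.12 with edgeR. In Prm2-/- against Prm2+/- it was -1.08 (interval -2.82 to 0.66), and -0.066 without that library.

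Adam8 (ENSMUSG00000025473, chr7:139978932-139992562), a proteinase of leukocytes, had 0, 20.4 and 1.10 normalized counts in the Prm2+/+ libraries, 20.8, 9.13 and 18.6 in those of Prm2+/- and 12.7, 14.2 and 20.1 in those of Prm2-/-. Replicates 1 and 3 of Prm2+/+ were low, while replicate 2 lay with the other genotypes. Against Prm2+/+, the LFC was 2.20 in Prm2-/- (interval -0.14 to 4.54, adjusted p = 0.701) and 2.19 in Prm2+/- (interval -0.15 to 4.54, adjusted p = 0.842), both on the scale of log2 of the value plus 1. Without Prm2+/+ replicate 2 the LFCs were 3.495 (adjusted p = 0.0625) and 3.49 (adjusted p = 0.0816). Without Prm2+/+ replicate 1 the LFC of Prm2-/- was 1.29 (adjusted p = 0.642). With edgeR, the LFC of Prm2-/- against Prm2+/+ was 1.14 (adjusted p = 0.912). The summed level of 4 macrophage markers was 115 to 145 in Prm2+/+, 125 to 141 in Prm2+/- and 120 to 171 in Prm2-/-, and that of 4 blood markers (globins) 676 to 1188, 904 to 1084 and 804 to 1205. Their part in the Adam8 values was not tested.

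Adam15 (ENSMUSG00000028041) had 38.0, 45.0 and 48.6 normalized counts in the Prm2+/+ libraries, 28.7, 48.4 and 30.9 in those of Prm2+/- and 35.3, 39.6 and 40.1 in those of Prm2-/-. Adam11 (ENSMUSG00000020926) had 18.1, 22.5 and 34.3 in the Prm2+/+ libraries, 19.8, 21.9 and 21.2 in those of Prm2+/- and 25.4, 19.3 and 18.0 in those of Prm2-/-. Adam22 (ENSMUSG00000040537) had 18.1, 18.2 and 9.94 in the Prm2+/+ libraries, 10.9, 14.6 and 12.4 in those of Prm2+/- and 10.9, 7.10 and 21.1 in those of Prm2-/-. In all 3 genes the genotypes overlapped, and the LFC of Prm2-/- against Prm2+/+ was -0.19 for Adam15 (interval -0.69 to 0.32), -0.21 for Adam11 (interval -0.82 to 0.39) and -0.30 for Adam22 (interval -1.26 to 0.65). The median coefficient of variation within genotypes was 35.9% for the tested somatic members and 15.5% for the germ-cell members, whose counts are higher.

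One library stood apart within its genotype. Prm2+/+ replicate 3 was the lowest of all libraries for 9 of the 24 tested members, all germ-cell ones, and the highest for 6. Over all tested genes it was lowest for 24.8% and highest for 23.9%, so extreme values in this library also occur outside the family. The 9 lowest values fell within the 18 germ-cell members, a larger share than over all genes, and 4 of these 18 were highest in it. This excess of low values was not tested. Against the mean of replicates 1 and 2 of Prm2+/+, on the log2 scale with 1 added, the 5 germ-cell members with several coding exons had a median of 0.30, and 4 of them were above 0 (Adam2 was at -0.42). The 13 with 1 coding exon had a median of -0.33, with 9 below 0 and 4 above (Adam30 was at 0.65 and Adam6a at 0.30). The 6 tested somatic members, which have several coding exons, had a median of -0.38, with 3 below and 3 above 0. The lowest were Adam26a at -1.32, Adam4 at -1.21, Adam24 at -1.005 and Adam39 at -0.90. All tested genes had a median of -0.013.

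As counts, Adam24 had 224 and 208 in replicates 1 and 2 of Prm2+/+ and 107 in replicate 3, and Adam26a had 117 and 113 against 45.3. The same measure in this library, as the median over marker lists, was -0.29 for Sertoli cells, -0.21 for spermatocytes, -0.12 for round spermatids, -0.095 for peritubular cells, 0.076 for endothelium, 0.18 for spermatogonia, 0.19 for Leydig cells, 0.21 for elongating spermatids, 0.26 for macrophages and 0.64 for the globins. Within lists the values were mixed, from -6.32 to 0.062 for spermatocytes, from -2.58 to 0.49 for elongating spermatids and with 3 of 6 below 0 for round spermatids. The summed level of the 6 spermatocyte markers was 4976 in this library, the lowest of the 3 in Prm2+/+, whose highest was 6663. The part of cell composition in these values was not tested, and the split by coding exons was chosen after the values were seen. Without Prm2+/+ replicate 3, 0 members were called and the smallest adjusted p over members was 0.465 in Prm2-/- against Prm2+/+ and 0.868 in Prm2+/- against Prm2+/+.

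Proteins that fold, modify and carry ADAM2 and ADAM3 in germ cells were followed in a list of 16 genes, of which 15 were in the table and tested. None (0 of 15) was called in any comparison by limma, edgeR or DESeq2, where limma called 0.181%, 0.0806% and 0.175% of all tested genes. An unadjusted p under 0.05 was found for 2 of the 15 in Prm2-/- against Prm2+/+ (7.33% of all genes), for 1 in Prm2+/- against Prm2+/+ (4.24%) and for 1 in Prm2-/- against Prm2+/- (5.44%). Their median LFC in Prm2-/- against Prm2+/+ was -0.13, where all tested genes had 0.020. How far this median rests on Prm2+/+ replicate 3 was not tested. In both comparisons with Prm2+/- the gene with an unadjusted p under 0.05 was Ace, named after its values were seen. It had 186, 216 and 202 normalized counts in Prm2+/+, 151, 109 and 68.9 in Prm2+/- and 149, 180 and 173 in Prm2-/-. Its limma LFC was -0.94 in Prm2+/- against Prm2+/+ (unadjusted p = 0.00639, adjusted p = 0.842) and 0.67 in Prm2-/- against Prm2+/- (unadjusted p = 0.0313, adjusted p = 0.8865). Prss37, a serine proteinase-like protein needed for ADAM3 maturation, had 1072, 946 and 1186 normalized counts in the Prm2+/+ libraries, 909, 1033 and 1012 in those of Prm2+/- and 841, 850 and 921 in those of Prm2-/-. Its Prm2-/- libraries all lay below those of Prm2+/+, with an LFC of -0.29 (unadjusted p = 0.0220, adjusted p = 0.604). In this comparison the groups did not overlap, in either direction, for 3 of the 15 genes, against 14.0% of all tested genes. Pdia3, a disulfide isomerase of the endoplasmic reticulum, had 832, 874 and 961 in the Prm2+/+ libraries, 740, 845 and 815 in those of Prm2+/- and 714, 730 and 794 in those of Prm2-/-, with an LFC of -0.25 (unadjusted p = 0.0241, adjusted p = 0.612). Prss37 and Pdia3 both had their highest Prm2+/+ value in replicate 3, and their LFCs without that library are not given.

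Calr3, Cmtm2b and Tpst2 of the same list gave further extreme values in Prm2+/+ replicate 3, named here after their values were seen. Calr3, the testis calreticulin needed for ADAM3 folding, had 859 normalized counts there and 57.4 to 130 in the other 8 libraries. Cmtm2b had 24.3 there and 1670 to 1899 elsewhere. Tpst2 was at 0 there and at 20.3 to 35.9 elsewhere, apart from 2.72 in Prm2-/- replicate 1. The causes were not tested, and Adam3 itself, at 2221, was at its highest in Prm2+/+ replicate 3.

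Genes that carry, activate or inhibit ADAM10 and ADAM17 formed a second list of 18, of which 17 were in the table and 12 were tested. None (0 of 12) was called by limma, edgeR or DESeq2 in any comparison, where limma called the 0.181%, 0.0806% and 0.175% of all genes given above. An unadjusted p under 0.05 was found for 0 of the 12 in each comparison, against 7.33%, 4.24% and 5.44% of all genes. The median LFC in Prm2-/- against Prm2+/+ was 0.063, where all tested genes had 0.020. Without sign, the median LFC was 0.71 against 0.20 for all tested genes, and the 12 ran from -1.37 to 2.05. For 8 of the 12 the interval reached beyond -1 or 1. The lack of calls therefore does not show these genes unchanged. Some had libraries at or near 0. Furin was at 0 in replicate 3 of Prm2+/+ and of Prm2+/-, Tspan14 in Prm2+/+ replicate 3 and Tspan33 in Prm2+/+ replicate 2. Tspan17 was at 4.06 in Prm2-/- replicate 2. Pcsk7, a proprotein convertase, had 64.6, 65.4 and 3.31 normalized counts in the Prm2+/+ libraries, 65.3, 68.5 and 59.2 in those of Prm2+/- and 79.7, 72.0 and 83.4 in those of Prm2-/-. Replicate 3 of Prm2+/+ alone was low, and the LFC of Prm2-/- against Prm2+/+ was 1.58 (unadjusted p = 0.132, adjusted p = 0.741). Rhbdf1, an inactive rhomboid protein that carries ADAM17 to the cell surface, had 7.60, 4.29 and 6.63 in the Prm2+/+ libraries, 0, 10.0 and 8.84 in those of Prm2+/- and 22.6, 13.2 and 12.7 in those of Prm2-/-. Its Prm2-/- libraries all lay above the other 6, with an LFC of 1.24 against Prm2+/+ (unadjusted p = 0.196, adjusted p = 0.753). Groups did not overlap, in either direction, for 2 of the 12 in Prm2-/- against Prm2+/+ (14.0% of all tested genes). The count was also 2 in Prm2-/- against Prm2+/- (14.7%).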

How the data were processed

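Testis RNA was sequenced by the authors with QuantSeq in 9 libraries. Per the labels and the submitters' processing notes, reads were trimmed (Trim Galore 0.4.5), mapped to GRCm38 (HISAT2 2.1) and quantified (StringTie 1.3.3). The authors deposited a signal: normalized counts, made by dividing each library's counts by 1 size factor (DESeq2). All values (100%, tolerance 0.1) were whole multiples of 1 step per library, and counts were recovered by division. For Prm2+/- replicate 1 that step is too near 1 for this to be a check. 0 columns lacked a sample.

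Genes kept by filterByExpr on the recovered counts (14893) were tested with limma (lmFit, eBayes with trend) on log2(normalized count + 1) over all 9 libraries, with genotype as the only term. Fold changes are differences of genotype means on that scale, where the added 1 shrinks those of low genes and a single library near 0 can enlarge them. Intervals and p-values rest on 1 spread per gene within genotypes, pooled over all 9 libraries and drawn towards that of other genes. A library that stands apart can therefore widen the interval of a comparison it is not part of. edgeR (quasi-likelihood) and DESeq2 on the recovered counts, TMM factors, other pseudocounts and filters, fits with only the 6 libraries compared, a replicate block and leaving out each library were alternatives. limma and edgeR were checked on simulated counts. Across genes as a whole, replicate numbers did not pair the libraries (correlations of deviations from the genotype means -0.037 to 0.042). This does not cover single genes.

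The members, classes and lists were chosen with earlier results of these data known. Values in every library are given for the 6 germ-cell and 5 somatic members with the highest means, the 3 members with the smallest p in each comparison, any member called or with a gap of 8-fold between neighbouring libraries whose higher side reached 20, and the 2 genes with the smallest p of each list in Prm2-/- against Prm2+/+. Other genes, the pairs compared for identity, and the splits by exon number, zinc-binding site and Prm2+/+ replicate 3 were chosen after values were seen. All 31 members were matched to GENCODE M21, which gave positions, lengths and coding sequences. Promoters were searched for cAMP-response motifs, and this is not reported here. Software was limma 3.58.1, DESeq2 1.42.0 and edgeR 4.0.16 under R 4.3.3, and Biopython 1.88, numpy 2.4.6, pandas 2.3.3 and matplotlib 3.10.9.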

Additional observations from a re-analysis of the deposited data

How the results depend on the processing

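Under each alternative run, 0 members were called in each comparison, while the number tested ranged from 20 (at least 10 counts in every library) to 30 (any count above 0), and the smallest adjusted p over members ranged from 0.0625 to 1. The lowest was Adam8 without Prm2+/+ replicate 2. Across genes as a whole, replicate numbers did not pair the libraries, a check that does not cover single genes. With a replicate block 0 members were called and the smallest adjusted p was 0.677, 0.820 and 0.938. Of 693 alternative LFCs for the 13 members given by library, 661 kept their direction and 32 changed sign, all of them not called. Part of the 661 could not change. Other filters, fits with only the 6 libraries compared, the replicate block and leaving out a library of the third genotype return the same LFC by construction. In Prm2-/- against Prm2+/-, edgeR and DESeq2 gave Adam11 0.0010 and 0.00061, Adam22 0.043 and 0.041, and Adam8 -0.041 and -0.042, and a pseudocount of 5 gave Adam8 -0.0038.

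With 1 library left out at a time, the LFC of Prm2-/- against Prm2+/+ ranged from -0.19 to 0.022 for Adam2, -0.42 to 0.29 for Adam32, -0.36 to 0.036 for Adam18, -1.12 to 0.42 for Adam10, -0.41 to 0.032 for Adam11 and -0.70 to 0.029 for Adam22. For Prm2+/- against Prm2+/+ it ranged from -0.097 to 0.12 for Adam2, -0.22 to 0.31 for Adam32, -0.13 to 0.051 for Adam6a and -0.39 to 0.053 for Adam11. For Prm2-/- against Prm2+/- it ranged from -0.044 to 0.094 for Adam5, -0.54 to 0.23 for Adam32, -0.016 to 0.35 for Adam15, -0.16 to 0.075 for Adam11, -0.46 to 0.26 for Adam22 and -0.33 to 0.22 for Adam8. The causes were not tested. The 7 somatic members under the filter had 0 to 72 counts in all and were not tested, and the difference that could have been detected for low members was not measured.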
